A study of Mus musculus with 12 samples.

Results

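Paused mouse embryonic stem cells that received the guide RNA Mycn-gRNA3 were compared with paused cells that received a non-targeting guide (NT), over all genes. The comparison was chosen by the sample titles and takes 8 of the 12 libraries of the series, 4 NT and 4 Mycn-gRNA3. The other 4 libraries carry a further guide, Mycn-gRNA2. They enter the filter on low counts, the scaling of the libraries, the estimate of the spread and the test of the difference between the guides. Their values are also given in places for comparison. All groups are cells of the line E14, with the genotype given as WT(dCas_Alkbh5): they express a dCas protein joined to Alkbh5, an m6A demethylase of RNA, so the NT cells carry the fusion too. The cells were kept on gelatin with FBS and LIF, transfected with a plasmid that codes for the guide and selected for 3 days in 8 µg/mL blasticidin. INK128, which blocks the growth kinase mTOR, was then given at 200 nM for 5 days. RNA came from 200000 cells per sample and received synthetic ERCC RNAs. There is a single control guide. Nothing in the labels ties replicates to separate cultures, so each p-value rests on a spread between libraries that may be technical.

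Mycn codes for N-Myc, a member of the MYC family of transcription factors. These factors pair with MAX, bind the E-box sequence CACGTG near gene starts and are known to raise genes of ribosome assembly, nucleotide and polyamine synthesis, mitochondria and glycolysis. In embryonic stem cells Mycn and Myc support growth, and loss of MYC activity or of mTOR activity brings the cells into a dormant state that resembles the paused blastocyst. m6A marks on a transcript can shorten its life through reader proteins.

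Levels are given on 2 scales. CPM (a gene's share of all endogenous reads, scaled by TMM factors) and the relative log2 fold change set a gene against the rest of the transcriptome. Reads per 1000 ERCC reads and the log2 fold change per ERCC read set it against the added RNA, which stands for the number of cells extracted if counting and RNA yield were equal. On the second scale a change in RNA per cell and a change in the number of cells recovered cannot be told apart. A gene was called changed when its Benjamini-Hochberg adjusted p from edgeR's quasi-likelihood test was under 0.05.

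The 8 libraries held 21822509 to 33819855 endogenous reads, and ERCC RNAs took 1.05% to 1.61% of all reads. The 10 stem cell markers summed to 4489 to 4923 CPM in NT and 4177 to 4400 CPM with Mycn-gRNA3, so both groups had the stem cell transcripts the label names. Transcripts of the Y chromosome set the groups apart. The genes Kdm5d, Eif2s3y, Uty and Ddx3y had 1, 3, 4 and 3 reads in the 4 NT libraries together and 1060, 2073, 1330 and 1964 reads in the 4 Mycn-gRNA3 libraries. Their sum was 0.18, 0.0448, 0.0791 and 0.176 CPM in NT replicates 1 to 4 and 63.5, 62.4, 57.8 and 46.1 CPM in Mycn-gRNA3 replicates 1 to 4. Mycn-gRNA2 replicates 1 to 4 had 83.7, 32.4, 61.2 and 61.4 CPM. The NT libraries thus nearly lacked Y-linked transcripts, although E14 is a male line, and the cause was not tested. The read ratio was 876 for Kdm5d, with a 95% exact counting interval of 157 to 34650, and 275 for Uty, with an interval of 107 to 1011. Every comparison with NT rests on these 4 libraries, and an effect of the guide and a difference between the cultures cannot be told apart.

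Mycn itself was higher with Mycn-gRNA3 on both scales. Mycn (chr12:12936093-12941836, minus strand, mm10) stood at 141, 146, 140 and 136 CPM in NT replicates 1 to 4. With Mycn-gRNA3 it stood at 267, 289, 292 and 258 CPM. The groups did not overlap, and the lowest Mycn-gRNA3 library was far above the highest NT library. The relative rise was 0.97 on the log2 scale (SE 0.0784, adjusted p = 4.13e-06). Per 1000 ERCC reads Mycn went from 8.43, 10.8, 9.18 and 8.55 in NT to 25.4, 26.9, 27.7 and 21.1 with Mycn-gRNA3, a log2 rise of 1.45 (SE 0.156, adjusted p = 4.15e-09). Reads from the antisense transcript at the locus could be counted with Mycn, because no source used here gives the strand setting of the counting.

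**Figure D1:**
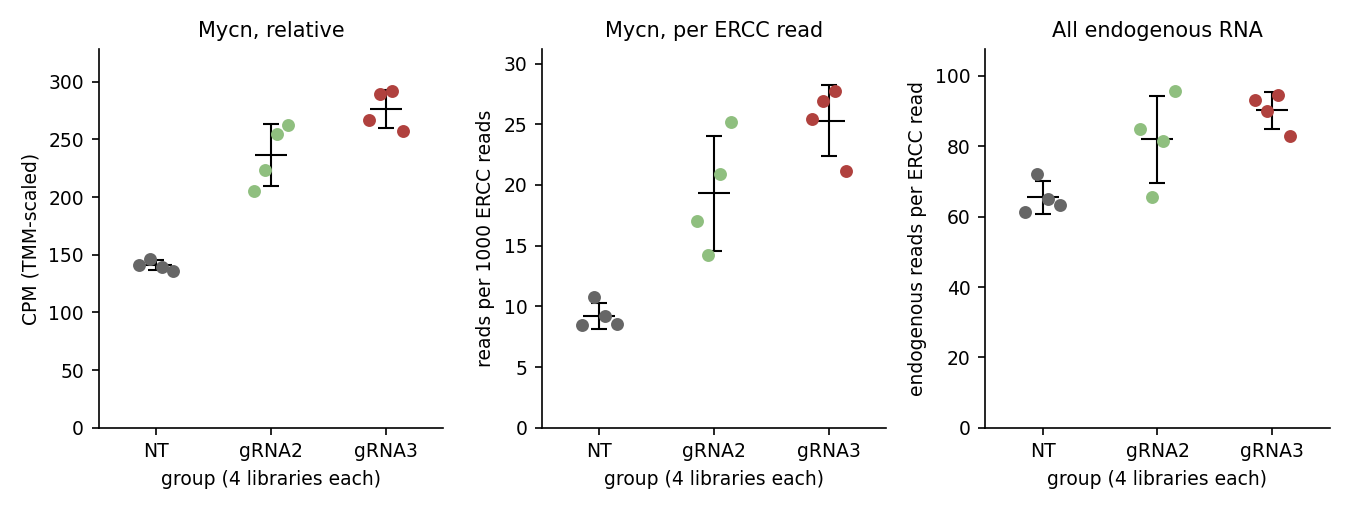
Mycn in CPM (left), Mycn in reads per 1000 ERCC reads (middle) and all endogenous reads per ERCC read (right) by group. Each point is 1 library, the bars give the mean and SD of 4 libraries, and every axis starts at 0. In all 3 panels the 4 Mycn-gRNA3 libraries lie above the 4 NT libraries.

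Most relatives and partners of Mycn were not called. Over all genes tested, 14.8% were called higher and 12.2% lower relative to the transcriptome, which is the background for the counts here. Myc, the paralog with the same DNA target, stood at 110, 120, 113 and 140 CPM in NT and 94.3, 107, 156 and 148 CPM with Mycn-gRNA3, with overlapping groups and a relative log2 difference of 0.07 (SE 0.138, adjusted p = 0.73). Of 14 tested MYC family members and partners, 2 rose relative to the transcriptome and 0 fell by edgeR (1 fell without Mycn-gRNA3 replicate 1). The second rise was Mlxipl, the glucose-responsive factor, at 0.44 (adjusted p = 0.0445), and its call ended when any 1 of 9 libraries was left out, namely each NT and each Mycn-gRNA3 library and Mycn-gRNA2 replicate 3 (adjusted p from 0.0573 to 0.127). With any of these except Mycn-gRNA3 replicate 1 out, the count of the list went from 2 to 1. Max, the shared partner, had a relative log2 difference of 0.04 (adjusted p = 0.875). Alkbh5, whose count could include reads of the fusion, had 0.04 (adjusted p = 0.646). Of the 7 tested neighbours around Mycn on chromosome 12, Mycn included, Trib2, a pseudokinase, rose by 0.81 (adjusted p = 0.00129), and Ddx1 and Nbas, the genes beside Mycn, had 0.09 (adjusted p = 0.254) and −0.06 (adjusted p = 0.499). Fam49a and Greb1 were called at −0.39 and −0.34 (adjusted p = 0.0342 and 0.0263), and neither call held without NT replicates 2 or 4 or Mycn-gRNA3 replicates 2, 3 or 4, which left 0 falls, while Fam49a lost its call also without NT replicates 1 or 3, which left 1.

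Total polyA RNA per ERCC read was higher with Mycn-gRNA3. Endogenous reads per ERCC read were 61.3, 72.1, 65.1 and 63.4 in NT replicates 1 to 4 and 93.2, 90.1, 94.5 and 83.0 with Mycn-gRNA3. No Mycn-gRNA3 library fell within the NT range. The mean log2 difference was 0.46, a 1.38-fold rise, with an exact two-sided permutation p of 0.0286, the smallest that 4 against 4 allow. The difference was 0.43 to 0.51 with any 1 of the 8 libraries left out, and 0.48 with 45 ERCC RNAs weighted equally.

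Across the 14497 genes tested, most calls per ERCC read were rises. On this scale 8794 genes rose (60.7%) and 73 fell (0.504%), with a median of 0.48. Relative to the transcriptome, 2147 rose (14.8%) and 1772 fell (12.2%), with a median of 0.00. Most relative falls were not called lower per ERCC read: of the 1772, 73 also fell on that scale, 1692 were not called and 7 were called higher, with a median of 0.07. All 2147 relative rises were also rises per ERCC read. Both scales use the same counts and differ only in how each library is scaled, so these overlaps are not separate results. Rises were larger than falls, with 598 rises and 68 falls of 2-fold or more. Genes of low level held most of these, since 14.6% of the 2712 genes with a mean log2 CPM of 1 or less rose at least 2-fold, against 0.424% of the 4012 genes with a mean above 5 and up to 7. Fewer relative falls were called without Mycn-gRNA3 replicate 3 (1086) and more without Mycn-gRNA2 replicate 1 (2803). The falls per ERCC read numbered 36 and 40 without NT replicates 3 and 4, 48, 37 and 36 without Mycn-gRNA3 replicates 2, 3 and 4, and 110 without Mycn-gRNA2 replicate 1.

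**Figure D2:**
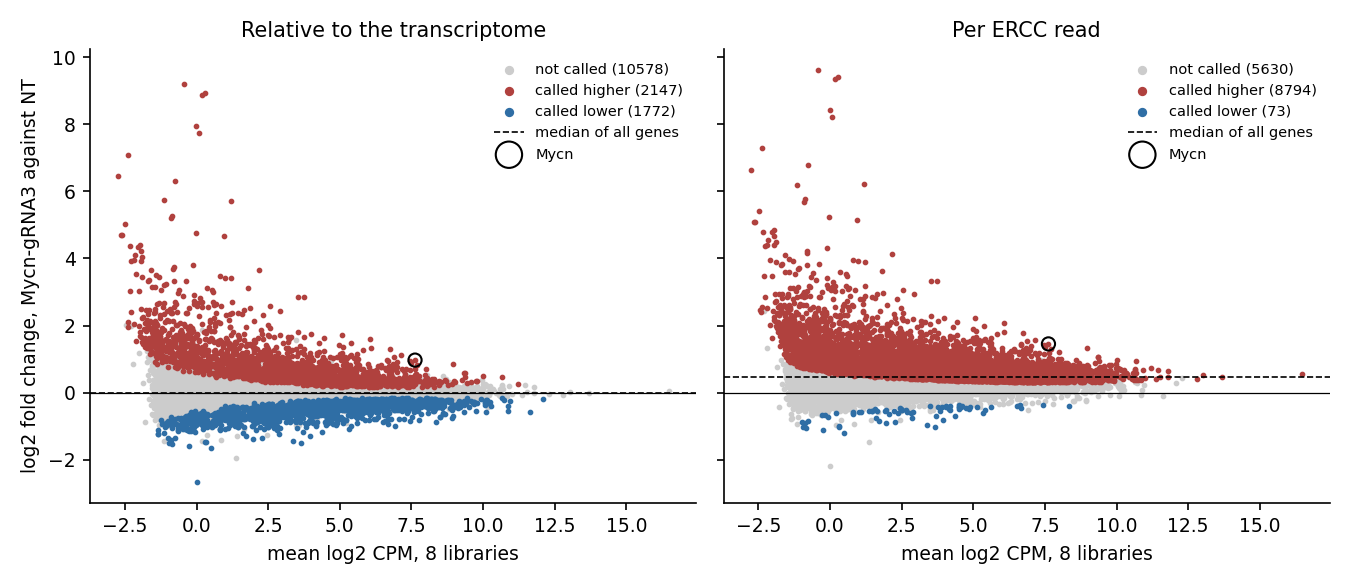
Log2 fold change of Mycn-gRNA3 against NT for each of 14497 genes, over its mean log2 CPM in the 8 libraries, relative to the transcriptome (left) and per ERCC read (right). Red and blue points are genes called higher and lower, the dashed line is the median of all genes, at 0.00 on the left and 0.48 on the right, and the circle is Mycn.

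In the gene groups below, counts are relative to the transcriptome unless said otherwise, and each is read against 14.8% of all genes called higher and 12.2% called lower. A named gene kept its call with any 1 of the 12 libraries left out unless the text says otherwise.

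Genes known as MYC targets moved mostly upward. Of 65 tested, 23 rose, 1 fell and 41 did not pass, and the median was 0.22 against 0.00 for all genes. Per ERCC read 62 of 65 rose, where 60.7% of all genes did, with a median of 0.69 against 0.48 for all genes. Without Mycn-gRNA2 replicate 1 the relative counts were 40 and 2. The gene that fell was Tfb2m, a mitochondrial transcription factor, by 0.40 (adjusted p = 0.00212).

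Phb, prohibitin of the inner mitochondrial membrane, stood at 79.1, 87.1, 84.4 and 76.3 CPM in NT and 146, 175, 183 and 182 CPM with Mycn-gRNA3. Its groups were well apart, and it rose by 1.07 (SE 0.175, adjusted p = 0.000763). Nop16, a nucleolar protein of the large ribosomal subunit, rose by 0.82 from 30.7 ± 0.814 CPM (SD, n = 4). Polr1b, a core subunit of RNA polymerase I, rose by 0.42 from 142 ± 2.52 CPM (SD, n = 4). Hspe1, the mitochondrial chaperonin partner HSP10, rose by 0.66, and Hspd1, its partner HSP60, had 0.37 (adjusted p = 0.129). Cdk4, the G1 cyclin-dependent kinase, rose by 0.35 (SE 0.0705, adjusted p = 0.00303). Phb was chosen after its values were seen.

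The promoters of 3 MYC targets that rose are shown because each holds the E-box of MYC and MAX. The windows are from RefSeq on build GRCm38.p6 and run from 250 bases before to 50 bases after the gene start. They are written 5′ to 3′ on the gene's strand, with each CACGTG in capitals.
Phb, chr11:95666707-95667006, plus strand: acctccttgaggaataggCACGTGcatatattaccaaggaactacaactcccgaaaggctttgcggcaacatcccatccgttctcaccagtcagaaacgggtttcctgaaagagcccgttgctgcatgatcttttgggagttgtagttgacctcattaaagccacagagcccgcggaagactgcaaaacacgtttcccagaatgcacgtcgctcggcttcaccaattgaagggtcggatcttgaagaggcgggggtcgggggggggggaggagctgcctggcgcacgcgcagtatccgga
Sms, chrX:157492238-157492537, minus strand: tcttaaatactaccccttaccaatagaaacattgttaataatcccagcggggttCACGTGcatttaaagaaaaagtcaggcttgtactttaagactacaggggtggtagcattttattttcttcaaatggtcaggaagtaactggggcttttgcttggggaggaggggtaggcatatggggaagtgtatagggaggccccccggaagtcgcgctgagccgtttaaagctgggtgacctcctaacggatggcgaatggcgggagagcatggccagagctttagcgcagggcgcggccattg
Cdk4, chr10:127063285-127063584, plus strand: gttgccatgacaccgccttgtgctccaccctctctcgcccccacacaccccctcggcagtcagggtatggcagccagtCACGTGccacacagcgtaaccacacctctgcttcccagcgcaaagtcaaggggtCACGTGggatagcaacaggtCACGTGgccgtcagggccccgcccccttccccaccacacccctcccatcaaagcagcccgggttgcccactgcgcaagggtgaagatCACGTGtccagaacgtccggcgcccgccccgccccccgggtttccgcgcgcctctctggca
The motif begins 232 bases before the start of Phb and 196 bases before that of Sms, and it occurs 4 times before the start of Cdk4. Sms codes for spermine synthase. Promoters were matched for 11362 of the 14497 genes. The letters CACGTG, which read the same on both strands, were present in 11.6% of all of them, 11.0% of genes called higher, 11.5% of genes called lower and 11.8% of genes not called. The related letters CACGCG or CATGTG on either strand were in 27.9% of all, 27.3% of those called higher and 29.0% of those called lower. Among the 57 MYC targets with a promoter, 35.1% held CACGTG, and among the 22 that rose, 31.8%. The genes that rose thus held the motif at about the share of all genes, and the MYC targets that rose at about the share of their list.

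Genes of polyamine synthesis rose. Polyamines are small cations needed for growth, and Odc1 makes the first of them, Srm the next and Sms spermine. Odc1 stood at 556, 586, 498 and 485 CPM in NT and 682, 824, 859 and 803 CPM with Mycn-gRNA3, a rise of 0.58 (SE 0.0871, adjusted p = 0.000422). Srm went from 82.1, 90.0, 84.9 and 86.0 CPM to 130, 159, 173 and 163 CPM, a rise of 0.87 (SE 0.118, adjusted p = 0.000205). Both enzymes were lowest in replicate 1 among the Mycn-gRNA3 libraries, and neither group overlapped NT. Sms rose by 0.86 (SE 0.101, adjusted p = 6.17e-05) and Smox, the spermine oxidase, by 0.57. Sat1, which starts polyamine breakdown, fell by 0.45 (adjusted p = 0.00831), with 0.03 per ERCC read (adjusted p = 0.88). In all, 6 of 11 tested genes rose and 1 fell, with a median of 0.29. The other 2 rises were weaker. Oaz2, an antizyme, was called at 0.38 (adjusted p = 0.0393) and Mtap, of methionine salvage, at 0.23 (adjusted p = 0.0324), and both lost the call without NT replicates 1, 3 or 4 or Mycn-gRNA3 replicates 2, 3 or 4 (Oaz2 also without NT replicate 2 or Mycn-gRNA3 replicate 1).

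Genes of serine synthesis rose too. Phgdh, Psat1 and Psph catalyse the 3 steps from a glycolytic intermediate to serine, and all 3 rose, as did Gldc, which splits glycine in mitochondria. Phgdh stood at 36.2, 40.6, 33.1 and 30.6 CPM in NT and 51.0, 70.2, 84.0 and 75.6 CPM with Mycn-gRNA3, a rise of 1.00 (SE 0.225, adjusted p = 0.00583). Psat1 went from 90.4, 91.6, 61.8 and 56.7 CPM to 112, 153, 170 and 141 CPM, a rise of 0.94 (SE 0.188, adjusted p = 0.00273). Mycn-gRNA3 replicate 1 was again the lowest of its group for both enzymes. Gldc went from 23.5, 26.0, 23.2 and 22.6 CPM to 46.6, 50.7, 48.2 and 46.4 CPM, with little spread in either group, a rise of 1.01 (SE 0.0816, adjusted p = 4.13e-06). Psph rose by 0.91 and the folate carrier Slc19a1 by 0.62. Of 17 genes of serine and folate-dependent carbon metabolism, these 5 rose and 1 fell, with a median of 0.22. The fall was Mtr, methionine synthase, by 0.25 (adjusted p = 0.0147, 0.0515 without Mycn-gRNA3 replicate 3), and without Mycn-gRNA2 replicate 1 the counts were 8 and 3.

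Phgdh and Psat1 are also targets of ATF4, the factor of the integrated stress response, and 8 of 31 genes of that list rose and 0 fell (adjusted p under 0.05 by edgeR), with a median of 0.31. Stc2, a secreted glycoprotein, went from 2.35, 2.20, 2.25 and 2.51 CPM to 5.81, 6.05, 7.24 and 5.75 CPM, a rise of 1.42 (SE 0.168, adjusted p = 6.66e-05). Slc1a4, a transporter of serine and alanine, rose by 1.07, Cebpb by 0.93 and Aldh18a1, of proline synthesis, by 0.51. Nupr1, a stress-induced nuclear protein, had 20 reads in NT and 142 with Mycn-gRNA3, a read ratio of 5.87 (95% counting interval 3.66 to 9.90). It passed the filter on low counts only through the guide libraries. Without Mycn-gRNA2 replicate 1 the count of the list was 13. Of 23 aminoacyl-tRNA synthetase genes, which include further ATF4 targets, Sars rose by 0.65 (adjusted p = 0.000589) and Aimp1 was called at 0.23 (adjusted p = 0.0345), a call that ended without NT replicates 1, 2 or 4 or Mycn-gRNA3 replicates 2, 3 or 4 and left 1 gene, whereas 5 were called without Mycn-gRNA2 replicate 1. The unfolded protein response of the endoplasmic reticulum had 0 of 21 genes called higher by edgeR and 1 lower, Dnajc3 by 0.30 (adjusted p = 0.0078). Without Mycn-gRNA2 replicate 1 it had 1 higher and 4 lower, and 2 were lower without NT replicate 1 or Mycn-gRNA2 replicate 2.

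Of 35 tested genes of glycolysis and hypoxia, 13 rose and 2 fell, with a median of 0.27. Pkm, pyruvate kinase, was the most abundant of those named, with a mean ± SD over 4 libraries of 1399 ± 118 CPM in NT and 1924 ± 248 CPM under Mycn-gRNA3, a rise of 0.46 (SE 0.106, adjusted p = 0.00629). Hk1, hexokinase, rose by 0.46, Pfkm, phosphofructokinase, by 0.53, and Aldoc, aldolase C, by 0.96. Bnip3, a mitophagy receptor that hypoxia induces, rose by 1.03 (SE 0.165, adjusted p = 0.000629) from 5.03 ± 1.49 CPM (SD, n = 4). Slc2a3, a glucose transporter, and Bnip3l, a relative of Bnip3, were called lower at −0.27 and −0.20. The count of rises was 8 without Mycn-gRNA3 replicate 4. Slc2a3 lost its call without NT replicates 2 or 3 or Mycn-gRNA3 replicates 2, 3 or 4 (adjusted p from 0.0512 to 0.0822), which left 1 fall.

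Nucleotide synthesis had 6 rises and 1 fall among 29 genes, with a median of 0.14. Nme2, a nucleoside diphosphate kinase, rose by 0.57 and Dctpp1, which removes damaged dCTP, by 0.59, and Adss, of AMP synthesis, fell by 0.32. The rises numbered 3 and 2 without NT replicates 3 and 4, 3 and 2 without Mycn-gRNA3 replicates 2 and 3, and 12 without Mycn-gRNA2 replicate 1, where 2 fell. Cholesterol synthesis had 6 rises and 0 falls among 25 genes (edgeR), with a median of 0.22 and a positive difference in 24 of the 25. Dhcr7, the last enzyme of one branch, rose by 0.65 (SE 0.122, adjusted p = 0.0018). Those rises numbered 2 when NT replicate 3, NT replicate 4, Mycn-gRNA3 replicate 3 or Mycn-gRNA3 replicate 4 was left out, 3 without Mycn-gRNA3 replicate 2 and 12 without Mycn-gRNA2 replicate 1.

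**Figure D3:**
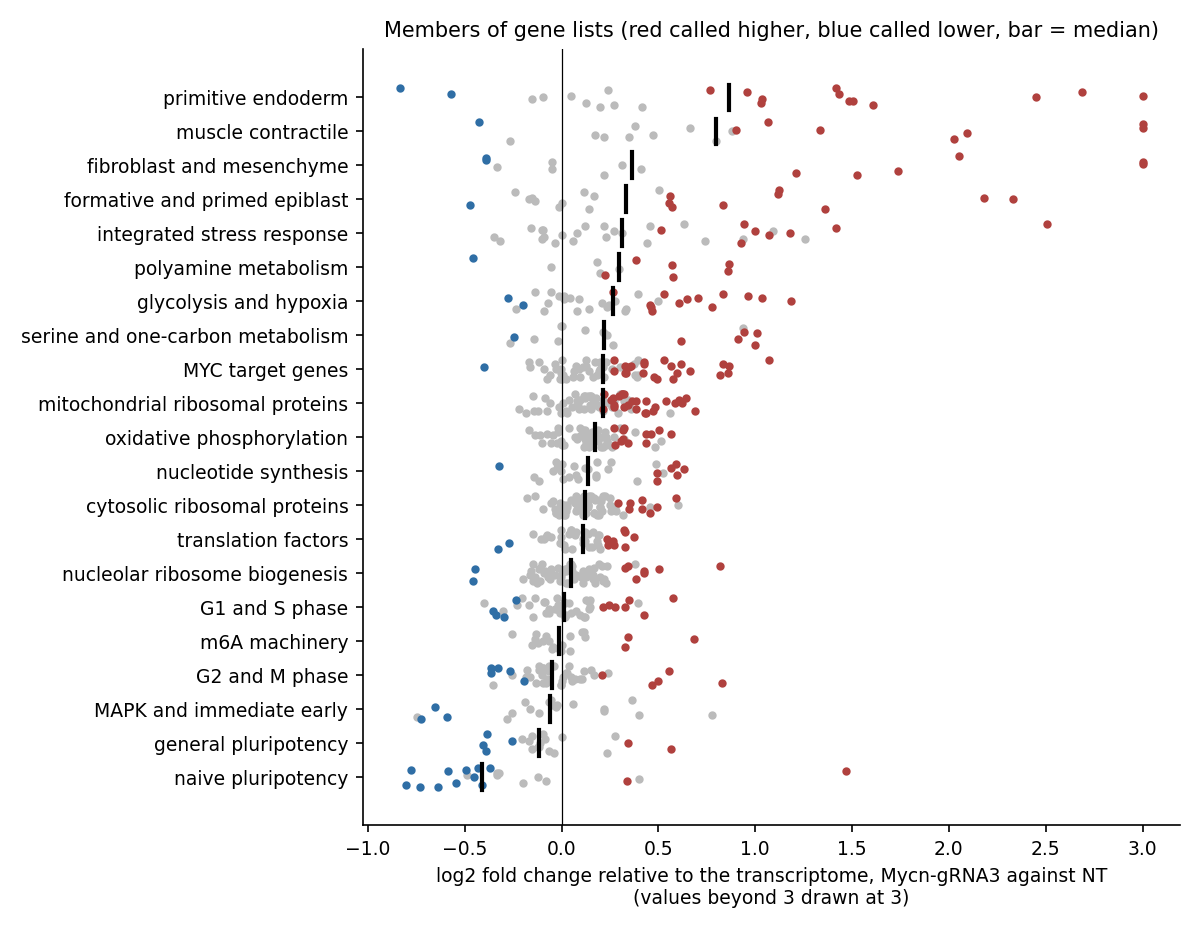
Relative log2 fold change, Mycn-gRNA3 against NT, of each tested member (point) of 21 gene lists, with values beyond 3 drawn at 3. Red and blue points were called higher and lower, and bars are medians, which run from −0.41 for naive pluripotency to 0.86 for primitive endoderm.

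The lists of ribosome and mitochondrial genes had positive medians, and their shares of rises lay on both sides of the 14.8% of all genes. Of 77 mitochondrial ribosomal protein genes, 26 rose and 0 fell (edgeR), with a median of 0.21 and a positive difference in 67. Mrpl43 stood at 29.7, 28.8, 28.0 and 27.6 CPM in NT and 42.5, 45.1, 45.5 and 40.7 CPM with Mycn-gRNA3, a rise of 0.61 (SE 0.0785, adjusted p = 0.000132). Mrpl23 rose by 0.62, Mrpl12 by 0.58 and Mrpl46 by 0.54. The count was 15 without NT replicate 4, Mycn-gRNA3 replicate 2 or Mycn-gRNA3 replicate 3, and 43 without Mycn-gRNA2 replicate 1. The falls numbered 1 without NT replicate 4 and 3 without Mycn-gRNA2 replicate 1.

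Of 63 nuclear genes of oxidative phosphorylation, 12 rose and 0 fell (edgeR), with a median of 0.17, and 25 had Mycn-gRNA3 libraries all above NT, where 20.8% of all genes had that and 18.5% the opposite. Cox8a, a subunit of cytochrome oxidase, rose by 0.46 and Uqcrh, of complex III, by 0.32. The count of rises was 6, 5 and 2 without NT replicates 1, 3 and 4, 3 without each of Mycn-gRNA3 replicates 2, 3 and 4, and 31 without Mycn-gRNA2 replicate 1, where 1 gene fell.

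Among 78 cytosolic ribosomal protein genes 8 rose and 0 fell (edgeR), with a median of 0.12, 28 non-overlapping higher and 0 non-overlapping lower. Rpl36 was measured at 255, 267, 262 and 239 CPM in NT and at 336, 335, 363 and 332 CPM with Mycn-gRNA3, a rise of 0.42 (SE 0.0871, adjusted p = 0.00358). Rps12 rose by 0.35, Rps29 by 0.42 and Rpl18 by 0.59. Many of these genes have processed pseudogene copies that could share reads, so single members are uncertain. The count was 4 without NT replicate 4, 5 without Mycn-gRNA3 replicate 3 and 25 without Mycn-gRNA2 replicate 1. Translation factors had 8 rises and 2 falls among 41, with Eif2b1, of the GTP exchange factor of initiation, at 0.33, Eif3l at 0.27 and Eif3f at 0.24, and Eif5b, which joins the subunits, lower by 0.33. Their rises numbered 5 and 3 without NT replicates 3 and 4, 4 without Mycn-gRNA3 replicate 3 and 13 without Mycn-gRNA2 replicate 1, and 1 gene fell when any of NT replicates 1 to 3, Mycn-gRNA3 replicates 2 to 4 or Mycn-gRNA2 replicate 3 was left out. Nucleolar ribosome biogenesis, a process MYC factors are known for, had 7 rises and 2 falls among 61, a share of rises below that of all genes, with a median of 0.05. Gar1, of the H/ACA particle, rose by 0.34 and Bysl, of the small subunit, by 0.50, and Nop58, of the C/D particle, and Rpf1 fell by 0.45 and 0.46. Per ERCC read 56 of the 61 rose, where 60.7% of all genes did, with a median of 0.53 against 0.48 for all genes. On that scale 20 of 21 m6A genes also rose, at a median of 0.47, so a high share need not mean a larger rise. The rises numbered 18 without Mycn-gRNA2 replicate 1 and 12 without Mycn-gRNA3 replicate 1, and 5 genes fell without the former.

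The length of the genes moved with these results. Among genes with a mean log2 CPM above 3, the relative median was 0.20 for 298 genes of up to 800 bases of exon, 0.11 for 990 genes of 801 to 1500, −0.01 for 2732 genes of 2501 to 4000 and −0.13 for 1329 genes over 6000 bases. In the shortest class 22.5% rose and 2.01% fell, and in the longest 7.52% rose and 26.6% fell. The median exon length was 706.5 bases for the cytosolic ribosomal proteins, 739 for oxidative phosphorylation and 1053 for the mitochondrial ribosomal proteins, against 2891 over all genes tested and 2332 for the MYC targets. The shortest class stood above the longest, as a log2 difference from the NT mean, by 0.143, 0.36, 0.433 and 0.329 in Mycn-gRNA3 replicates 1 to 4, and by 0.0712, 0.0922, −0.0446 and −0.127 in NT. Mycn-gRNA2 replicate 1 had −0.206, the lowest of the 12 libraries. The part of length in the list results was not tested.

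**Figure D4:**
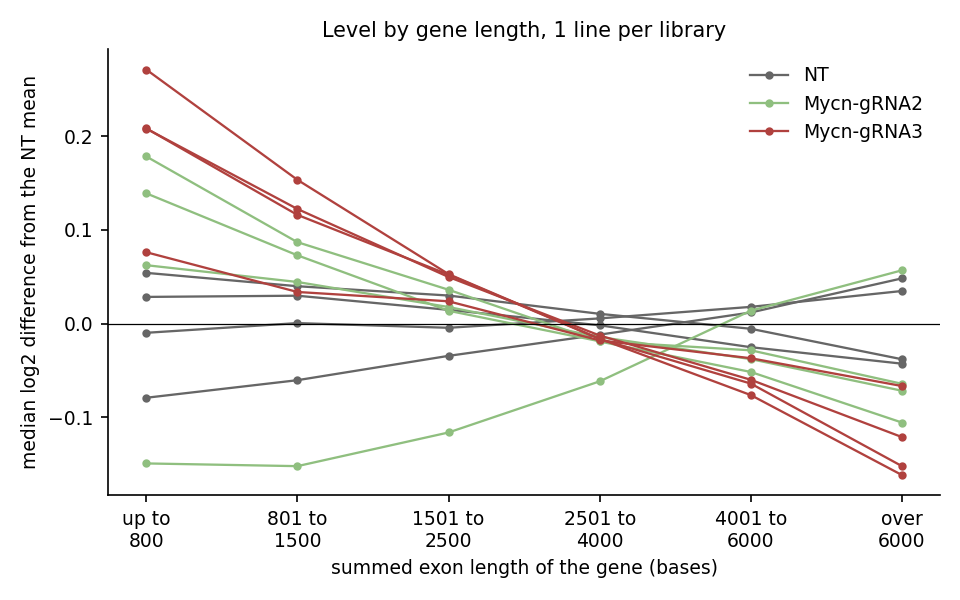
Median log2 difference from the NT mean of genes with a mean log2 CPM above 3, in 6 classes of summed exon length, with 1 line per library. Lines of the 4 Mycn-gRNA3 libraries fall from short to long genes, NT lines spread around 0, and the Mycn-gRNA2 line that rises with length is replicate 1.

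Naive pluripotency genes were mostly lower relative to the transcriptome. Of 21 tested, 11 fell and 2 rose, with a median of −0.41. Nanog, a core factor of the naive state, stood at 497, 518, 465 and 478 CPM in NT and 326, 325, 300 and 308 CPM with Mycn-gRNA3. These values are tight in both groups, and Nanog fell by 0.64 (SE 0.0775, adjusted p = 7.67e-05). Prdm14, a repressor of differentiation genes, went from 50.9, 51.6, 48.7 and 47.0 CPM to 31.6, 27.5, 25.0 and 29.3 CPM, a fall of 0.81 (SE 0.106, adjusted p = 0.000143). Tet2, which oxidises methylated cytosine, fell by 0.73, Zfp57, which guards imprints, by 0.58, and Klf4 by 0.37 (adjusted p = 0.0116).

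Per ERCC read none of these genes was called lower. Nanog was at 29.6, 38.1, 30.5 and 30.0 reads per 1000 ERCC reads in NT and 31.0, 30.2, 28.5 and 25.2 with Mycn-gRNA3, with overlapping groups (−0.16, adjusted p = 0.32). On that scale 0 of the 21 fell by edgeR, where 0.504% of all genes fell, and 5 rose, where 60.7% rose. The median was 0.07 against 0.48 for all genes. The 5 are Klf2, Zfp42, Dppa3, Dppa5a and Fbxo15. Dppa3, a maternal factor also found in germ cells, was low, at 1.58, 1.79, 1.03 and 0.879 CPM in NT and 2.90, 4.30, 3.51 and 3.83 CPM with Mycn-gRNA3, a relative rise of 1.47 (SE 0.213, adjusted p = 0.000312). Klf2 was the second relative rise, at 0.34 (adjusted p = 0.0348), a call that ended without NT replicates 3 or 4 or Mycn-gRNA3 replicates 1 or 2 (adjusted p from 0.0944 to 0.108) and left 1. Pou5f1 and Sox2, the factors shared by naive and primed cells, had −0.04 (adjusted p = 0.867) and −0.08 (adjusted p = 0.495).

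Genes of the formative and primed epiblast, the stage after the naive one, had 9 rises and 1 fall among 20, with a median of 0.33. Pou3f1, a POU factor of this stage, went from 21.3, 24.4, 18.9 and 21.4 CPM in NT to 49.4, 54.4, 63.0 and 54.3 CPM with Mycn-gRNA3, a rise of 1.36 (SE 0.154, adjusted p = 4.78e-05). Dnmt3b, a de novo DNA methyltransferase, was at 115, 136, 70.5 and 72.7 CPM in NT and 158, 184, 272 and 243 CPM with Mycn-gRNA3. In both groups replicates 1 and 2 differed from 3 and 4, in opposite directions, and the rise was 1.12 (SE 0.239, adjusted p = 0.00445). Lef1, a Wnt effector, rose by 2.18, with 1.53 CPM in Mycn-gRNA3 replicate 1 against 4.95, 7.27 and 6.04 in the others. Sox3 rose by 2.33 and Pim2 by 0.83, and Zic2 fell by 0.47. Of 20 general pluripotency genes, Lin28b, which blocks let-7, rose by 0.57 and Cdh1, E-cadherin, by 0.34, and 4 fell, among them Zfp281 by 0.41. Without Mycn-gRNA2 replicate 1 that list had 4 rises and 7 falls.

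**Figure D5:**
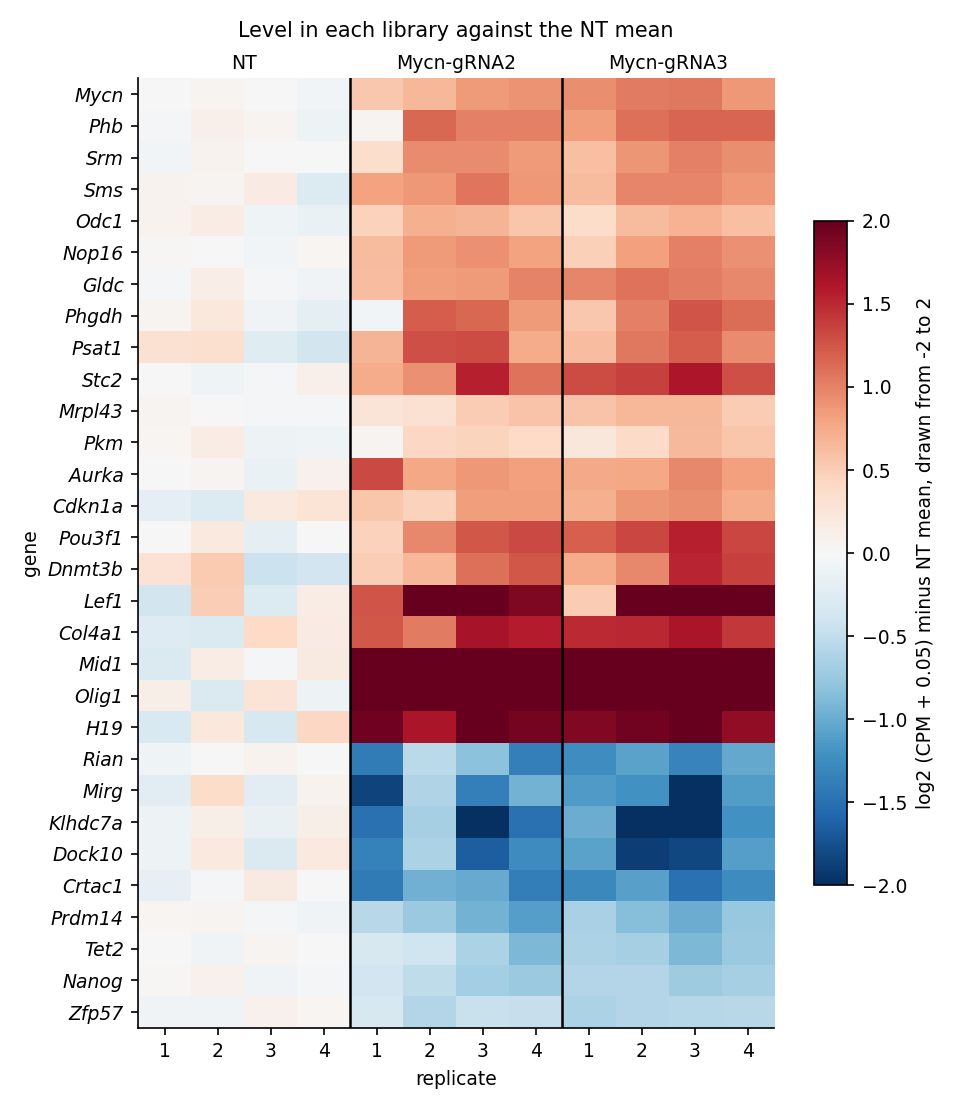
Level of 30 named genes in each of the 12 libraries, as log2 (CPM + 0.05) minus the mean of the 4 NT libraries, drawn from −2 to 2. Red genes are higher and blue genes lower than NT, and the 4 Mycn-gRNA3 columns are on the right.

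Lists of other lineages held genes that NT libraries almost lacked, such as Foxa2, Acta2, Myl3, Col3a1, Olig1 and Olig2. Such genes passed the filter on low counts through the guide libraries and so had to differ. The counts and medians of these lists are therefore descriptions of the genes that passed. Among all genes with a mean log2 CPM of 1 or less, 19.5% rose and 5.64% fell. Of 22 tested primitive endoderm genes, 12 rose and 2 fell, with a median of 0.86. Col4a1, a basement membrane collagen, went from 20.6, 20.2, 32.6 and 27.6 CPM to 69.6, 70.5, 77.1 and 66.2 CPM, a rise of 1.49 (SE 0.157, adjusted p = 2.58e-05). Lrp2, an endocytic receptor, rose by 0.96 and its partner Cubn by 2.45. Foxa2, a pioneer factor of endoderm, had 6 reads in NT and 302 with Mycn-gRNA3, a read ratio of 41.6 (95% counting interval 18.9 to 114). Lamc1, a laminin chain and the most abundant of those named at 1324 ± 95.1 CPM in NT (SD, n = 4), fell by 0.57, and Sox7 fell by 0.83. The whole list of 25 genes summed to 2369 to 2741 CPM in NT and 2160 to 2361 CPM with Mycn-gRNA3. Ttr, a defining visceral endoderm gene, was at 0 reads in all 8 libraries, and Afp and Apoa1 were too low to be tested.

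Contractile and matrix genes included several of these. Of 17 tested muscle genes 7 rose and 1, Tagln2, fell (2 fell without NT replicate 2), with a median of 0.80. Acta2, smooth muscle actin, had 4 reads in NT and 434 with Mycn-gRNA3 (ratio 89.7, interval 34.8 to 331), and Myl3, a slow-muscle myosin light chain, 16 and 548 (ratio 28.3, interval 17.3 to 49.9). Myl9, a smooth muscle light chain, rose by 2.02 to 11.6 ± 1.79 CPM, and Tpm2, a tropomyosin, by 1.07 to 22.3 ± 2.18 CPM (SD, n = 4 each). Of 14 tested fibroblast genes 6 rose and 2 fell, with a median of 0.36. Col5a2 rose by 2.05 to 2.21 ± 0.292 CPM (SD, n = 4), and Col3a1 had 1 read in NT and 59 with Mycn-gRNA3 (ratio 48.8, interval 8.42 to 1959). Fn1, fibronectin, fell by 0.39, and Fbn1 was called at −0.39 only with all of NT replicates 1, 3 and 4 and Mycn-gRNA3 replicates 2, 3 and 4 present (adjusted p from 0.0836 to 0.121 without 1 of them). The 20 fibroblast genes summed to 2184 to 2633 CPM in NT and 1709 to 2150 CPM with Mycn-gRNA3, and Col1a2, Dcn, Lum, Postn, Prrx1 and S100a4 were too low to be tested. The 22 muscle genes summed to 804 to 1112 CPM and 846 to 984 CPM. In bulk RNA more or fewer cells of a type and more or less RNA per cell, such as a few cells of another type against a low level in all cells, cannot be told apart.

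Neural genes went both ways, with 4 rises and 5 falls among 12. Olig1, a factor of motor neuron and oligodendrocyte precursors, stood at 0.316, 0.224, 0.356 and 0.264 CPM in NT and 16.0, 17.2, 16.2 and 13.1 CPM with Mycn-gRNA3. The rise was 5.72 (SE 0.293), a description only, since Olig1 passed the filter on low counts through the guide libraries. Its neighbour Olig2 had 5 reads in NT and 1432 with Mycn-gRNA3 (ratio 237, interval 101 to 730). Sox1, which marks the neural plate, went the other way, from 120, 132, 114 and 129 CPM to 70.3, 54.4, 71.0 and 77.1 CPM, a fall of 0.86 (SE 0.109, adjusted p = 0.000113), and it also fell per ERCC read, by 0.39 (adjusted p = 0.04). Ncam1 fell by 0.84 and En1 by 1.30, with Sox11 and Stmn2, and Pax6 and Tubb3 rose by 0.83 and 0.62. The 18 genes summed to 568 to 638 CPM in NT and 507 to 556 CPM with Mycn-gRNA3, and Neurog2, Hes5, Zic1 and Gbx1 were among those too low to be tested. Among 14 tested mesendoderm genes Wnt3 was called at 1.65, a description only. It had 18 reads in NT and 70 with Mycn-gRNA3 (ratio 3.2, interval 1.89 to 5.74). Wnt3 too passed the filter on low counts through the guide libraries. The repressor Snai1 rose by 1.49 and the VEGF receptor gene Kdr by 3.05, and Fgf17 fell by 0.40. Foxh1 was called at 0.61 (adjusted p = 0.0393, from 0.0591 to 0.118 without any NT library or Mycn-gRNA3 replicate 2, 3 or 4). That list of 18 summed to 115 to 124 CPM in NT and 113 to 141 CPM with Mycn-gRNA3, with Gsc, Mesp1, Cer1 and Lhx1 too low to be tested. Of 11 trophoblast genes the simple keratins Krt8 and Krt18 rose by 0.64 and 0.95, and Tfap2a fell by 1.00, with −0.53 per ERCC read (adjusted p = 0.0371). Tead4 was called at −0.33 (adjusted p = 0.032) but not without NT replicates 3 or 4 or Mycn-gRNA3 replicates 2, 3 or 4, which left 1 fall. The 16 trophoblast genes summed to 74.9 to 101 CPM and 84.3 to 92.2 CPM, with Tpbpa at 0 reads.

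Cell cycle and signalling lists held calls in both directions. Aurka, a mitotic kinase, stood at 64.8, 67.0, 58.9 and 68.5 CPM in NT and 109, 111, 126 and 115 CPM with Mycn-gRNA3, a rise of 0.83 (SE 0.108, adjusted p = 0.000139). Bub3, of the spindle checkpoint, rose by 0.55, Cdc25b by 0.50 and Ccna2, cyclin A2, by 0.47, and Smc4, a condensin subunit, fell by 0.36. The 44 G2 and M genes had 5 rises and 5 falls, with a median of −0.05, and their falls numbered 2 without NT replicate 2 or Mycn-gRNA3 replicates 3 or 4, 3 without NT replicate 4 or Mycn-gRNA3 replicate 2 and 10 without Mycn-gRNA2 replicate 1. Of 45 G1 and S genes 7 rose and 4 fell, with a median of 0.01. Mcm5, of the replicative helicase, rose by 0.33, and Gins3, Orc6 and Pola1 fell by 0.35, 0.24 and 0.34. The rises numbered 2 without NT replicates 3 or 4 or Mycn-gRNA3 replicate 3, and 4 without Mycn-gRNA3 replicate 4, and 9 genes fell without Mycn-gRNA2 replicate 1. Cdkn1a, the p21 inhibitor of cyclin-dependent kinases, rose from 13.8, 13.1, 18.2 and 19.2 CPM to 25.9, 29.2, 30.1 and 26.5 CPM, by 0.80 (SE 0.128, adjusted p = 0.000665). Of 20 MAPK and immediate early genes 0 rose by edgeR and 3 fell, namely Fos by 0.73, Egr1 by 0.65 and Dusp1 by 0.59, none of which passed per ERCC read. Without Mycn-gRNA2 replicate 1 that list had 1 rise and 5 falls.

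Among 21 m6A writers, readers and erasers, Rbm15, which brings the methyltransferase to RNA, stood at 60.0, 58.0, 63.3 and 59.5 CPM in NT and 105, 95.6, 96.8 and 90.0 CPM with Mycn-gRNA3, a rise of 0.69 (SE 0.0738, adjusted p = 3.1e-05). Ythdf2, a reader that promotes decay, rose by 0.34, and Rbm15b was called at 0.33 (adjusted p = 0.0305), a call that ended without any NT library or Mycn-gRNA3 replicates 1, 3 or 4. No member fell by edgeR, the median was −0.01, and 1 was called lower without Mycn-gRNA2 replicate 1 or 2. Of 50 genes of RNA polymerase II, pausing and elongation, 6 rose and 9 fell, with a median of −0.05. Polr2a, the largest subunit of the polymerase, fell by 0.31, and Ccnt2, cyclin T2, by 0.37. Cdk9, the kinase that releases paused polymerase, rose by 0.40 and the small subunit Polr2l by 0.64. Falls numbered 5 without NT replicate 4, 4 without Mycn-gRNA3 replicate 3 and 14 without Mycn-gRNA2 replicate 1, and rises 3 without Mycn-gRNA3 replicate 4.

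Further lists held calls in both directions. RNA polymerase I and III had 6 rises and 3 falls among 31 genes, with Polr1d and Brf2, subunits of the machinery, at 0.34 and 0.43. Its rises numbered 3 when any of NT replicates 2 to 4, Mycn-gRNA3 replicates 3 and 4 or Mycn-gRNA2 replicate 3 was left out, and its falls 0 without NT replicate 3, 1 without Mycn-gRNA3 replicate 2, and 6 and 5 without Mycn-gRNA2 replicates 1 and 4. The 15 chaperonin genes held Hspe1 as the rise (2 and 3 rises without NT replicate 2 and Mycn-gRNA2 replicate 1), and Hsp90aa1 at −0.20 (adjusted p = 0.0444), whose call ended without any 1 of the NT libraries, of Mycn-gRNA3 replicates 1, 3 and 4 or of Mycn-gRNA2 replicate 3. Lysosome and autophagy had 4 rises and 6 falls among 34, with Ctsz, a cathepsin, at 0.50 and Atp6v1h, of the proton pump, at −0.33, and rises numbered 2 without NT replicates 2 or 3 or Mycn-gRNA3 replicate 3. Its falls numbered 3 without any NT library or Mycn-gRNA3 replicates 2 or 4, and 2 without Mycn-gRNA3 replicate 3. The 21 p53 targets and CDK inhibitors had 2 rises, Cdkn1a and Zmat3 (0.28), and 1 fall, Mdm4, a p53 inhibitor, by 0.48, with 5 and 3 without Mycn-gRNA2 replicate 1 and 2 falls without Mycn-gRNA3 replicate 1. Of 16 interferon genes 2 rose, Oasl2 by 1.45 and Bst2 at 1.05 (1 rise without NT replicate 4 or Mycn-gRNA3 replicate 3), and 3 fell, among them Irf9 by 0.31. Of 33 polycomb and chromatin genes 4 rose and 6 fell, with Rnf2, of polycomb complex 1, and Tet1 lower by 0.41 each. Its rises numbered 2 without NT replicates 1, 3 or 4 or Mycn-gRNA3 replicates 2, 3 or 4, and 7 without Mycn-gRNA2 replicate 1. Of the 3 tested genes of the 2-cell-like state, Sp110 fell by 1.12, and 10 of the list's 13 genes were too low to be tested.

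Imprinted genes, which are expressed from 1 parental copy, went both ways. Of 25 tested, 8 rose and 7 fell. H19 rose from 1.94, 2.78, 1.90 and 3.21 CPM to 8.76, 9.29, 9.73 and 8.35 CPM, by 1.88 (SE 0.16, adjusted p = 5.69e-06), and Igf2, the growth factor gene at the same locus, by 1.00. Mest rose by 0.90, Magel2 by 0.97 and Slc38a4 by 0.55. Rian, a noncoding RNA of the Dlk1-Dio3 locus on chromosome 12, went from 29.3, 31.2, 32.4 and 31.1 CPM to 13.1, 14.7, 12.3 and 15.1 CPM, a fall of 1.17 (SE 0.158, adjusted p = 0.000187). Meg3 and Mirg, maternally expressed RNAs of the same locus, fell by 0.95 and 1.46. These 3, named after their values were seen, were also the 3 imprinted genes that fell per ERCC read, by 0.69, 0.48 and 1.00 for Rian, Meg3 and Mirg.

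Where the log2 CPM averaged 1 or more and the groups did not overlap, the largest rises outside the Y chromosome included several X-linked genes. Below that level Olig2, Acta2, Foxa2 and Myl3, given above, had larger ratios than most of them. After Olig1 they included Pof1b, an actin-binding protein, Cyyr1, Kctd12b, Mid1, a ubiquitin ligase of microtubules, Sema6a, a semaphorin, Sox18, Eno1b, Cubn, Greb1l, Gjb1, a connexin, Pth1r, a parathyroid hormone receptor, and Amot, a regulator of Hippo signalling, from 3.65 for Pof1b to 2.34 for Amot. Pof1b, Kctd12b, Mid1, Gjb1 and Amot lie on the X chromosome. Mid1 stood at 4.06, 5.47, 4.83 and 5.63 CPM in NT and 35.8, 36.7, 40.4 and 31.9 CPM with Mycn-gRNA3, a rise of 2.86 (SE 0.264, adjusted p = 1.16e-05). Mid1 reaches the pseudoautosomal boundary in mice, so X and Y copies may share its reads. Of 506 tested X-linked genes 15 rose 4-fold or more, where 146 of all 14497 genes did. Of the X-linked genes 14.6% rose and 14.8% fell, against 14.8% and 12.2% of all genes. Their median was −0.05 over the 303 above a mean log2 CPM of 3. Eno1b is a copy of Eno1 and may share its reads.

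By the same conditions the largest falls were smaller, and Mirg, given above, lies below that level. Klhdc7a stood at 20.3, 23.6, 19.6 and 23.6 CPM in NT and 10.9, 5.39, 5.10 and 9.31 CPM with Mycn-gRNA3, a fall of 1.5 (SE 0.266, adjusted p = 0.00124). Dock10, an activator of small GTPases, went from 16.0, 19.6, 14.1 and 19.6 CPM to 8.15, 4.63, 4.81 and 8.02 CPM, a fall of 1.44 (SE 0.225, adjusted p = 0.000544). In both genes Mycn-gRNA3 replicates 2 and 3 were the lowest. Panct2, a noncoding RNA, fell by 1.35, En1 by 1.30, Crtac1 by 1.28, Rcan2 by 1.22, Nsg2 by 1.21, Rian by 1.17, Pard3b by 1.12, Sult5a1 by 1.11, Srgap3 by 1.09, Taf7l and Tmem132d by 1.07 each and Pax8 by 1.06. On the same counts scaled per ERCC read all 14 also fell, led by Klhdc7a (−1.04), Dock10 (−0.97), Panct2 (−0.87), En1 (−0.84) and Crtac1 (−0.81).

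Dock10, Panct2, En1 and Pard3b lie on chromosome 1, where 28.0% of 810 tested genes fell and 7.41% rose. On chromosome 8 20.3% of 768 fell, and on the other autosomes 7.26% to 17.6%. Among genes with a mean log2 CPM above 3, the median was −0.15 on chromosome 1 and −0.11 on chromosome 8, against −0.08 to 0.06 on the other autosomes. By library, the chromosome 1 median from the NT mean was −0.152, −0.159, −0.194 and −0.114 in Mycn-gRNA3 replicates 1 to 4 and −0.0323 to 0.0283 in NT. Mycn-gRNA2 replicates 1 to 4 had −0.145, −0.0179, −0.111 and −0.171, and the chromosome 8 median with that guide was −0.13, so neither shift is particular to Mycn-gRNA3. The part of these chromosomes in the falls of single genes was not tested.

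The guides were compared directly, since both comparisons with NT share the same 4 libraries. By edgeR, 0 of 14497 genes (0.0%) were called different between Mycn-gRNA3 and Mycn-gRNA2 relative to the transcriptome, with 1273 at an unadjusted p under 0.05. This does not show that the guides act alike. DESeq2 called 1, Rhox5. Per ERCC read edgeR called 1 (0.0069%), again Rhox5, a homeobox gene of the X chromosome. It stood at 33.2, 32.5, 27.3 and 22.9 CPM in NT, 28.1, 28.3, 37.1 and 33.6 CPM with Mycn-gRNA3 and 14.5, 19.1, 16.7 and 19.7 CPM with Mycn-gRNA2. The Mycn-gRNA2 libraries were thus the low ones, and the difference per ERCC read was 1.02 (SE 0.175, adjusted p = 0.0114). Mycn differed between the guides by 0.23 relative to the transcriptome (SE 0.0775, adjusted p = 0.549). Genes called higher with Mycn-gRNA3 had a median of 0.62 with that guide and 0.48 with Mycn-gRNA2, and genes called lower −0.41 and −0.31, but the former were chosen on the Mycn-gRNA3 values. Without Mycn-gRNA2 replicate 4, the library with the most endogenous RNA per ERCC read (95.6), 1983 genes were called higher and 5 lower with Mycn-gRNA3 per ERCC read. With the replicate number as a block, which pairs the guide libraries, 2 genes were higher per ERCC read and 0 lower by edgeR, Rhox5 by 1.02 (adjusted p = 0.00118) and Ndufa4l2, a relative of a respiratory chain subunit named after its values were seen, by 1.96 (SE 0.373, adjusted p = 0.00118, against 0.446 without the block). Ndufa4l2 was low, at 0.0869, 0.536, 0.209 and 0.151 CPM with Mycn-gRNA2 and 0.323, 0.692, 1.12 and 0.898 CPM with Mycn-gRNA3. It was higher with Mycn-gRNA3 in each of the 4 same-numbered pairs, a pairing that is uncertain for replicate 4. Without the block, the count went to 2 without Mycn-gRNA2 replicate 1 and to 0 without Mycn-gRNA3 replicate 3, Mycn-gRNA2 replicate 2 or Mycn-gRNA2 replicate 3.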

How the data were processed

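PolyA RNA of 12 libraries was sequenced, and 8 of them form the comparison. The deposited count table gives raw counts, made by the authors with Trim Galore 0.4.0 and featureCounts of Subread 1.5.0 on mm10, and edgeR 3.32.1 was used, per the submitters' processing notes. For the aligner and strand setting, nothing is given in the sources used here. The deposited log2 values equal log2(count + 0.5) minus a constant per library close to ERCC-based TMM factors. They served only an alternative test.

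Counts of 24421 genes went through edgeR 4.0.16 under R 4.3.3 (robust quasi-likelihood F test, all 12 libraries, a term per group, filterByExpr, Benjamini-Hochberg over 14497 genes). SEs are the log2 fold change over the square root of F. Alternatives used DESeq2 1.42.0 and limma 3.58.1, another normalization, no filter, a replicate block and each library left out. Replicate counts differed by more than sampling noise. Same-numbered Mycn-gRNA2 and Mycn-gRNA3 libraries deviated together, with correlations of 0.417, 0.348, 0.621 and 0.209 over 11823 genes. Mycn-gRNA2 replicate 4 correlated better with Mycn-gRNA3 replicate 3 (0.453) than with replicate 4. The block pairs the guides by number, a pairing read from the data and uncertain for replicate 4. Read-ratio intervals (95%) are exact binomial, scaled by total reads, and cover counting error only.

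Members and the 39 gene lists were chosen with earlier results of these data known. Named genes are Alkbh5, Myc, Mycn and the 14 largest rises and falls with non-overlapping libraries and a mean log2 CPM of at least 1 (Y-linked and clone names passed over). They include the 5 largest falls per ERCC read and genes called between the guides, with up to 6 each way allowed. Up to 5 members per list by adjusted p, the stem cell markers and members of lists of up to 15 genes were named too. Phb, Igf2, Meg3, Mirg, Tfb2m, Klf2, Zfp42, Fbxo15, Dppa5a, Sox7, Tagln2, Fn1, Fbn1, Sox11, Stmn2, Pax6, Tubb3, Mtr, Slc2a3, Bnip3l and Rhox5 were named after their values were seen. Some genes that the rule names are not reported here. The procedure was checked on simulated counts.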

Additional observations from a re-analysis of the deposited data

Results flagged for a closer look

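In 86 checks of groups of 4 libraries for a value far from the other 3, 2 stood out. That is fewer than the about 1 in 20 that chance gives. Rpl36, a ribosomal protein gene, was at 363 CPM in Mycn-gRNA3 replicate 3, above the 332 to 336 CPM of the other Mycn-gRNA3 libraries. Mirg, a noncoding RNA of the Dlk1-Dio3 locus, was at 0.326 CPM in Mycn-gRNA3 replicate 3, below the 0.838 to 0.898 CPM of the others. Both calls against NT held without that library.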

How the results depend on the processing

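Mycn rose on both scales under every alternative run. Against 2147 relative rises and 1772 falls, counts were 200 and 26 with replicates 1 and 2 alone and 3139 and 2816 with replicates 3 and 4 alone. With only the 2 groups they were 3218 and 2822. With 1 library left out rises ran from 1568 to 3209 and falls from 1086 to 2803. Per ERCC read, against 8794 rises and 73 falls, replicates 1 and 2 alone gave 2784 and 8, and replicates 3 and 4 alone 7757 and 179. Only the 2 groups gave 10443 and 160, and leaving out 1 library gave 6767 to 9877 rises and 36 to 110 falls.

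The endogenous reads per ERCC read kept their difference with the replicate block (0.46, exact sign-flip p = 0.125, the smallest 4 pairs allow) and within replicates 1 and 2 (0.46) and 3 and 4 (0.46), a split added after seeing the data that cannot give an exact p under 0.333. The replicate block gave 2361 rises and 2053 falls relative to the transcriptome and ended the call of none of the named genes. Same-numbered NT and Mycn-gRNA3 libraries deviated together with correlations of 0.0993, 0.228, 0.103 and 0.289 over 11823 genes, so not every pair passed 0.1. NT replicate 1 correlated best with Mycn-gRNA3 replicate 2 (0.177), so the number was not taken to pair these groups. The groups did share a split of replicates. Correlations were 0.0993 to 0.228 between their replicates 1 and 2, and 0.0658 to 0.289 between their replicates 3 and 4. They were −0.232 to −0.101 between NT replicates 1 and 2 and Mycn-gRNA3 replicates 3 and 4. Between NT replicates 3 and 4 and Mycn-gRNA3 replicates 1 and 2 they were −0.403 to 0.012. The cause of the split was not tested.

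Between the guides, against 0 relative calls, DESeq2 gave 1 higher, and replicates 3 and 4 alone 4 higher and 6 lower. Per ERCC read, against 1 higher and 0 lower, the replicate block gave 2 higher, only the 2 guides 0, replicates 1 and 2 alone 517 and 3, replicates 3 and 4 alone 3 and 4, and leaving out 1 library 0 to 1983 higher and 0 to 5 lower. Causes were not tested. Of 224 called named genes that could be fitted with replicates 1 and 2 alone, 182 lost their call. With replicates 3 and 4 alone, also 2 libraries per group, 3 named genes lost theirs.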

Other observations

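Hspa1a, an inducible heat shock chaperone, was looked at after its values were seen, as the gene with the largest called relative fall, by 2.67 (SE 0.813, edgeR adjusted p = 0.027). Its NT libraries split, with 0.587 and 0.314 CPM in replicates 1 and 2 and 7.56 and 5.63 CPM in replicates 3 and 4, against 0.404, 0.328, 0.977 and 0.509 CPM with Mycn-gRNA3. The groups overlapped, and the call was lost when any of NT replicates 3 and 4, Mycn-gRNA3 replicates 1, 2 and 4 or Mycn-gRNA2 replicate 1 was left out (adjusted p from 0.0551 to 0.104).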
